A study of Cavia porcellus with 44 samples.

Results

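Genes of the TGF-beta, BMP, WNT, Notch and growth factor pathways were followed in the liver of 44 guinea pigs. The members are the genes whose symbols match the name stems of these families (TGFB, BMP, SMAD, INHB, ACVR, WNT, FZD, SFRP, NOTCH, JAG, DLL, HES, HEY, FGF, PDGF, VEGF, IGF, EGFR and ERBB). Of 7747 genes in the deposited table of variance-stabilized values, 70 matched, and all 70 were tested. A further 23 matching symbols occur only in the count table, where none reached 200 counts over all animals, and 9 of them had no count in any animal. Several central genes are in neither table, among them TGFB1, TGFBR1, SMAD3, SMAD7, JAG1, DLL4, IGF1, VEGFA, PDGFA, PDGFB and EGFR. Nothing can be said about these genes here. The stems also took in 4 genes that share a name but are not ligands, receptors or regulators of these pathways (FGFR1OP2, IGF2BP2, IGF2BP3 and IGFLR1). BMP8A and BMP8B had identical counts in every animal, so that their levels are uncertain and stand for 1 measurement.

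Liver injury and repair are run largely by secreted signals. TGF-beta and activins act through serine/threonine kinase receptors and SMAD proteins, drive hepatic stellate cells to make scar matrix and restrain hepatocyte growth, while BMPs also set hepatic iron handling. WNT proteins bind Frizzled receptors and pattern the metabolic zones of the liver lobule, Notch receptors switch on HES and HEY repressors and steer cells toward the bile duct fate, and FGF, PDGF, IGF and ERBB ligands act through receptor tyrosine kinases on hepatocytes, bile duct cells and stellate cells.

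All animals were female Hartley guinea pigs, a species that depends on vitamin C (vitC) from feed, and their livers were sampled at week 32. LFH animals (n = 8) ate low fat feed with high vitC throughout, in amounts matched to HFH intake, and HFH animals (n = 8) ate high fat, high cholesterol feed with high vitC throughout. The other 4 groups ate the high fat feed with low vitC for 16 weeks and then 16 weeks of high fat feed with low vitC (HFL/HFL, n = 10), high fat feed with high vitC (HFL/HFH, n = 6), low fat feed with low vitC (HFL/LFL, n = 6) or low fat feed with high vitC (HFL/LFH, n = 6). No group ate low fat feed with low vitC throughout, and the switched low fat groups differ from LFH in both the fat and the vitC of the first 16 weeks. After the switch, feed of HFL/LFH was matched to the intake of HFL/HFH and that of HFL/LFL to HFL/HFL. RNA came from the left lateral lobe, and the animals of HFL/HFH, HFL/LFL and HFL/LFH were a random subset of their groups.

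The libraries held 21133800 to 35427700 counts (rounded), at which 3 counts in an animal equal 0.0626 to 0.170 CPM, the count of a gene scaled to the library's effective size. The hepatocyte markers ALB, AHSG, APOA2 and SERPINA1 were abundant in every library, with a summed level of at least 26653 CPM. Cell type markers moved with feed. The 4 measured cholangiocyte markers (KRT7, KRT19, EPCAM and CLDN4) were higher in all 3 comparisons of high with low fat feed, with a summed level of 146 to 382 CPM in LFH and 772 to 1347 CPM in HFH. The 4 hepatocyte markers were lower in HFH than in LFH (median log2 fold change -1.22), and their summed level was 110343 to 231884 CPM in LFH and 26653 to 95509 CPM in HFH. That level was 75304 to 211856 CPM in HFL/LFH and 45005 to 75783 CPM in HFL/HFH, where 2 of the 4 were called lower. It was 82658 to 181310 CPM in HFL/LFL and 32479 to 88952 CPM in HFL/HFL, where 3 were called lower. Of 5 stellate cell and myofibroblast markers, RGS5 and LUM were higher, LRAT was lower and ACTA2 and HAND2 were not called in each of the 3 comparisons. Their summed level was 362 to 708 CPM in LFH and 777 to 2374 CPM in HFH, 376 to 619 CPM in HFL/LFH and 886 to 1495 CPM in HFL/HFH, and 584 to 917 CPM in HFL/LFL and 700 to 1631 CPM in HFL/HFL, with overlap in the last pair alone. The part of these cell types in the results below was not tested, and in bulk tissue a change in the number of cells of a type cannot be told apart from a change in RNA per cell.

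The study asked how feed and vitC shape diet-induced liver disease and its regression. High fat feed was compared with low fat feed in 3 ways, as HFH over LFH, HFL/HFH over HFL/LFH and HFL/HFL over HFL/LFL. With edgeR's quasi-likelihood test and an adjusted p under 0.05, 33 of 70 members (47.1%) were called in HFH over LFH, against 49.3% of all genes tested, with 23 members higher (27.7% of all genes) and 10 lower (21.7% of all genes). In HFL/HFH over HFL/LFH 20 members (28.6%) were called, against 35.9% of all genes, with 14 higher (19.4% of all genes) and 6 lower (16.5% of all genes). The lower count of that comparison was 9 with only the groups compared in the fit, 8 with DESeq2 and 11 with limma voom, where the higher count was 14, 17 and 17. These fits called 2625, 2950 and 3522 of all 7750 genes in either direction. In HFL/HFL over HFL/LFL 21 members (30%) were called, against 37.8% of all genes, with 11 higher (19.7% of all genes) and 10 lower (18.1% of all genes). The members' share was below that of all genes in each. Animals of the compared groups did not overlap for 10 members in the first comparison (16.9% of all genes), 8 in the next (16.2%) and 5 in the last (9.90%). Their median log2 fold change was 0.41, 0.33 and 0.10 in these comparisons, against 0.06, 0.01 and 0.03 over all genes.

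In all 3 feed comparisons, 8 members were higher (INHBB, WNT5B, HEYL, HES6, FGF7, PDGFRB, IGFBP6 and ERBB2) and 4 were lower (INHBC, TGFBR3, SMAD6 and FGFR2). Together these are 17.1% of the members, where 23.9% of all genes tested were called in 1 direction in all 3, and 31 members were called in none. The levels of 3 members did not overlap between the 20 animals on low fat and the 24 on high fat feed at week 32. They were INHBB, TGFBR3 and WNT5B, or 4.29% of the members against 3.96% of all genes.

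**Figure D1:**
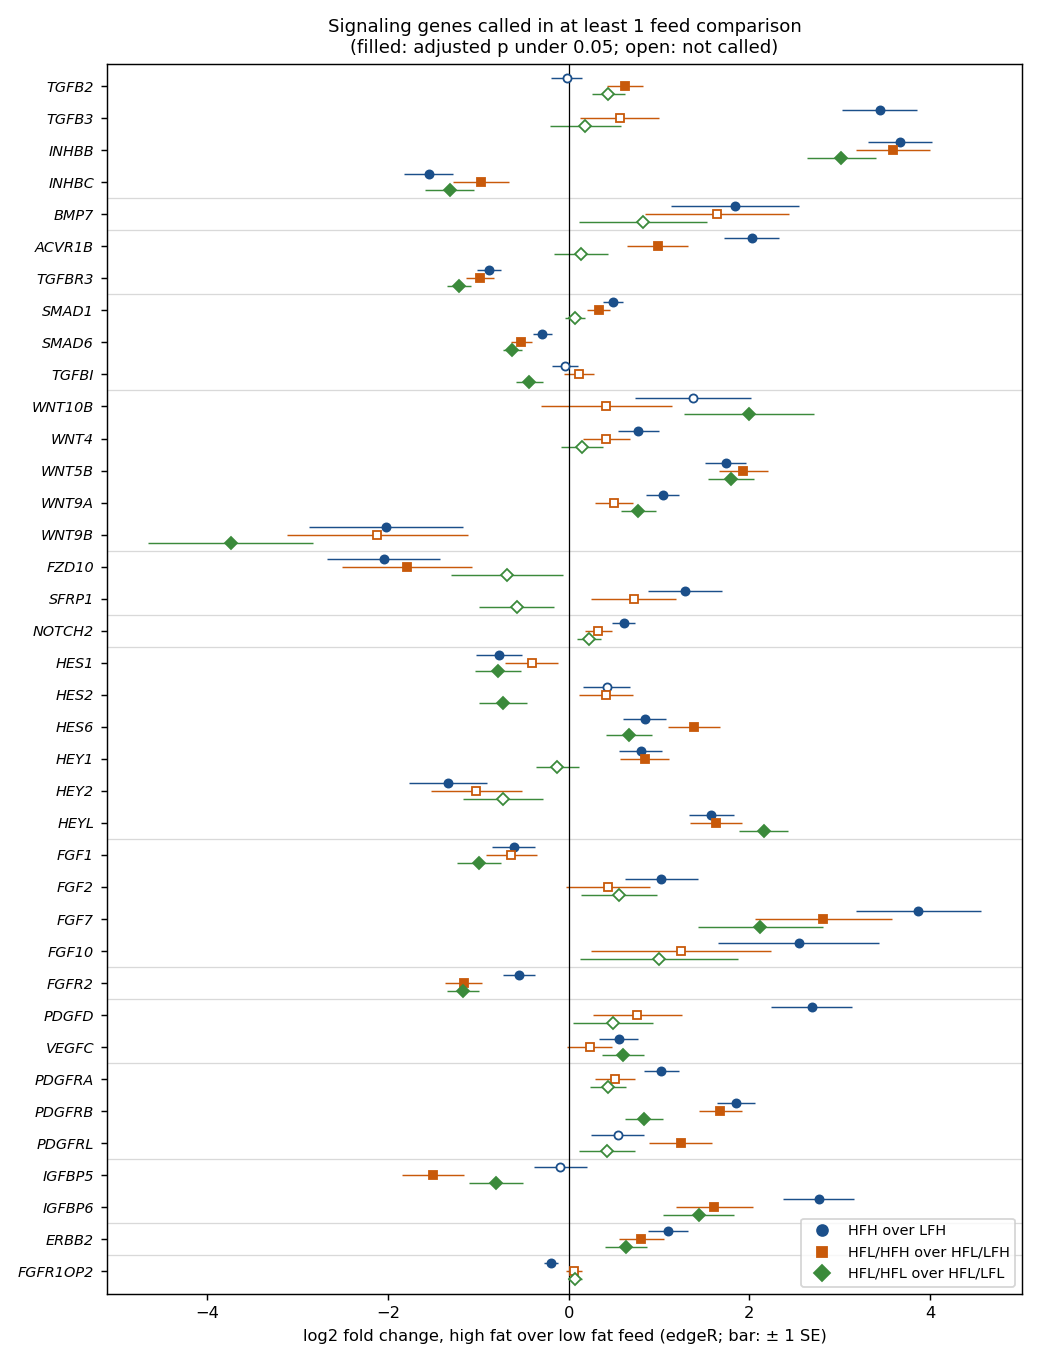
Log2 fold change (horizontal axis, ± 1 SE, edgeR) of 38 members called in at least 1 of 3 comparisons of high with low fat feed, ordered by role with grey lines between roles, with FGF19 left out because both of its low fat high vitC groups were at 0 counts. Filled symbols passed an adjusted p of 0.05 and open symbols did not. INHBB, WNT5B and HEYL lie to the right of 0 and INHBC and TGFBR3 to the left in each comparison, while TGFB3 and PDGFD are filled only for HFH over LFH.

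Of the TGF-beta and activin ligands, INHBB was higher and INHBC lower on high fat feed. INHBB, which encodes the beta B chain of activin and inhibin, ranged from 1.0 to 3.78 CPM (median 1.54) in LFH and from 13.8 to 37.7 CPM (median 21.3) in HFH. It ranged from 0.942 to 2.89 CPM (median 1.61) in HFL/LFH and from 13.5 to 45.9 CPM (median 18) in HFL/HFH. In HFL/LFL it ranged from 0.912 to 4.39 CPM (median 1.39), and in HFL/HFL from 7.07 to 31 CPM (median 12.6). Every animal on high fat feed was above every animal on low fat feed. Its log2 fold changes were 3.67 (SE 0.36, adjusted p = 2.99e-11), 3.59 (SE 0.41, adjusted p = 4.84e-09) and 3.02 (SE 0.38, adjusted p = 5.15e-08) in the order of comparisons above. INHBC, the activin beta C chain made chiefly by hepatocytes, ran the other way. It ranged from 506 to 1217 CPM (median 836) in LFH and from 121 to 459 CPM (median 277) in HFH, without overlap. HFL/LFH held 279 to 826 CPM (median 573) and HFL/HFH 185 to 484 CPM (median 271), while HFL/LFL held 411 to 1281 CPM (median 929) and HFL/HFL 157 to 551 CPM (median 312). Both of these pairs overlapped, and the log2 fold change of INHBC was -1.55 (SE 0.27, adjusted p = 6.92e-06), -0.97 (SE 0.31, adjusted p = 0.0117) and -1.32 (SE 0.27, adjusted p = 0.000137).

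TGFB3, a TGF-beta ligand, was called in HFH over LFH alone among the feed comparisons. It ranged from 4.10 to 8.56 CPM (median 5.40) in LFH and from 12.5 to 111 CPM (median 50.5) in HFH, so that every HFH animal was above every LFH animal. It ranged from 6.82 to 37.1 CPM (median 13.8) in HFL/LFH and from 17.3 to 34.8 CPM (median 23.2) in HFL/HFH. With low vitC it ranged from 7.59 to 49.7 CPM (median 22.8) in HFL/LFL and from 10.1 to 51.7 CPM (median 20.8) in HFL/HFL. HFL/HFH overlapped with HFL/LFH and HFL/HFL with HFL/LFL. For TGFB3 the log2 fold change was 3.44 (SE 0.42, adjusted p = 5.10e-09) in HFH over LFH, 0.57 (SE 0.44, adjusted p = 0.336) in HFL/HFH over HFL/LFH and 0.18 (SE 0.39, adjusted p = 0.744) in HFL/HFL over HFL/LFL. The feed effect of HFH over LFH minus that of HFL/HFH over HFL/LFH was itself tested, and TGFB3 was the only member called (1.43% of members, against 0.103% of all genes, which is 8 genes). For TGFB3 that difference was 2.88 on the log2 scale (SE 0.59, adjusted p = 0.0189). This call was lost in 5 of 28 fits that left out an animal, with the highest adjusted p of 0.0695 without HFL/LFH animal 32, and with limma voom (adjusted p = 0.123).

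TGFB2, another TGF-beta ligand, changed little between the unswitched groups, at 16.4 to 22 CPM (median 20.2) in LFH and 13.8 to 23.8 CPM (median 18.8) in HFH. HFL/LFH held 6.50 to 17.4 CPM (median 11.8) and HFL/HFH 11.6 to 26.9 CPM (median 18.1). In HFL/LFL it was at 8.82 to 18.9 CPM (median 13) and in HFL/HFL at 13.8 to 23.0 CPM (median 16.4). The groups overlapped in each feed comparison. TGFB2 was higher in HFL/HFH than in HFL/LFH (log2 fold change 0.62, SE 0.20, adjusted p = 0.0123), a call that was lost in 2 of 12 fits that left out an animal and with only these groups in the fit (adjusted p = 0.0837), and it was not called in the other feed comparisons (-0.02 in HFH over LFH and 0.44 in HFL/HFL over HFL/LFL). Of 5 BMP ligands, BMP7 passed the test in HFH over LFH alone (log2 fold change 1.84, SE 0.71, adjusted p = 0.0278), and BMP2, BMP3, BMP8A and BMP8B passed in none of the 3.

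Among the receptors, TGFBR3 (betaglycan, the coreceptor that presents TGF-beta2 and binds inhibin) fell with high fat feed. It ranged from 111 to 175 CPM (median 139) in LFH and from 57.8 to 99.1 CPM (median 77.4) in HFH. HFL/LFH held 112 to 148 CPM (median 133) and HFL/HFH 47.8 to 84.6 CPM (median 66.9), and HFL/LFL held 124 to 215 CPM (median 152) and HFL/HFL 45.9 to 90.7 CPM (median 70.1). No high fat animal reached the lowest low fat animal. Its log2 fold changes were -0.88 (SE 0.13, adjusted p = 4.88e-07), -0.98 (SE 0.15, adjusted p = 1.97e-06) and -1.22 (SE 0.13, adjusted p = 2.03e-09). ACVR1B, the type I receptor for activin (ALK4), ranged from 0.497 to 3.15 CPM (median 1.60) in LFH and from 3.82 to 9.85 CPM (median 7.23) in HFH, without overlap. It was at 1.46 to 4.02 CPM (median 2.61) in HFL/LFH and at 3.19 to 9.35 CPM (median 4.31) in HFL/HFH, where 3 of 6 animals were above all of HFL/LFH. It was at 2.13 to 5.09 CPM (median 4.28) in HFL/LFL and at 2.25 to 8.35 CPM (median 4.40) in HFL/HFL, which overlapped almost fully. Its log2 fold change was 2.03 (SE 0.30, adjusted p = 3.69e-07), 0.99 (SE 0.34, adjusted p = 0.0189) and 0.14 (SE 0.30, adjusted p = 0.752). The call in HFL/HFH over HFL/LFH was lost in 3 of 12 fits that left out an animal, with the highest adjusted p of 0.0820 without HFL/HFH animal 15. TGFBR2, the receptor that binds TGF-beta ligands, was at 220 to 374 CPM (median 305) in LFH and 182 to 314 CPM (median 241) in HFH and was not called (log2 fold change -0.31, 95% interval -0.66 to 0.04, adjusted p = 0.132). HFL/LFH held 161 to 297 CPM (median 274) of TGFBR2 and HFL/HFH 155 to 272 CPM (median 226), and HFL/LFL held 199 to 460 CPM (median 249) and HFL/HFL 148 to 342 CPM (median 231). The groups overlapped in each pair, and TGFBR2, BMPR1A and ACVR1C were not called in any feed comparison.

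**Figure D2:**
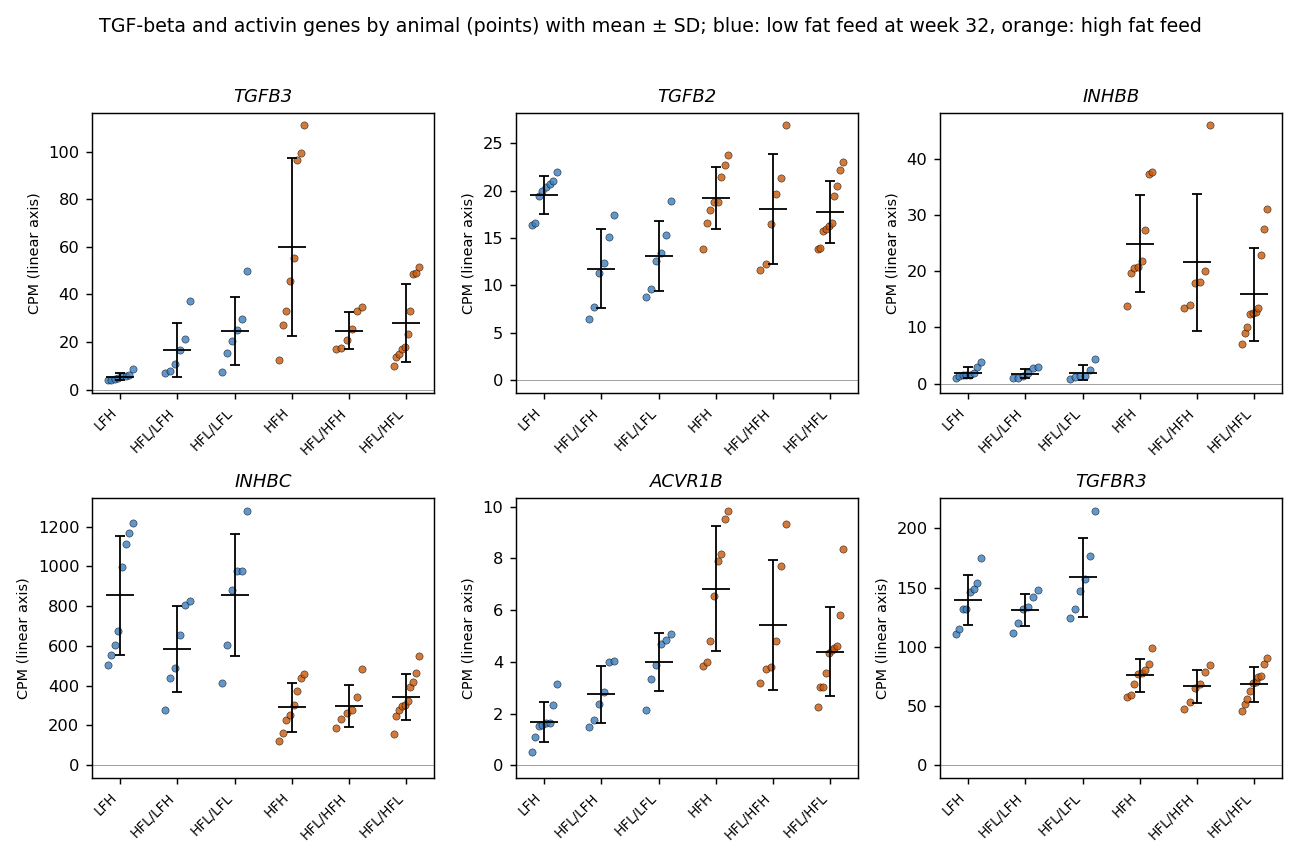
Levels of 6 TGF-beta and activin genes in CPM (vertical axes, linear) in each of 44 animals, with the mean and SD of each group as a line and bar. The 3 low fat groups are blue and the 3 high fat groups orange. INHBB and TGFBR3 separate the colours completely, whereas for TGFB3 the LFH animals (4.10 to 8.56 CPM) lie low and tight and the switched low fat animals reach 37.1 and 49.7 CPM.

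Downstream, SMAD6, an inhibitory SMAD induced by BMP signals, was slightly lower on high fat feed. It was at 33.8 to 57.4 CPM (median 45.9) in LFH and at 31.8 to 41.0 CPM (median 37.5) in HFH, which overlapped, and at 35.7 to 49 CPM (median 46.7) in HFL/LFH and 25.5 to 35.6 CPM (median 30.1) in HFL/HFH, which did not. HFL/LFL held 37.9 to 54.7 CPM (median 47.5) and HFL/HFL 23.1 to 38.9 CPM (median 31.1), with 9 of 10 HFL/HFL animals below all of HFL/LFL. For SMAD6 the log2 fold changes were -0.29 (SE 0.10, adjusted p = 0.0165), -0.52 (SE 0.12, adjusted p = 0.000466) and -0.62 (SE 0.10, adjusted p = 7.66e-06), and the first of these calls was lost without LFH animal 5 (adjusted p = 0.0563). SMAD1, which carries BMP signals, was higher in HFH than in LFH (log2 fold change 0.50, SE 0.11, adjusted p = 0.000241) and in HFL/HFH than in HFL/LFH (0.33, SE 0.13, adjusted p = 0.0367). TGFBI, a matrix protein induced by TGF-beta, was called in HFL/HFL over HFL/LFL alone (-0.44, SE 0.15, adjusted p = 0.0171).

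Listed partners of TGF-beta and BMP signaling that are no members were read alongside, of which 25 of 43 could be tested. In HFH over LFH 12 were higher and 4 lower, where 49.3% of all genes were called. In HFL/HFH over HFL/LFH 6 were higher and 1 lower (35.9% of all genes called), and in HFL/HFL over HFL/LFL 8 were higher and 2 lower (37.8% of all genes called). Their median log2 fold change was 0.32, 0.04 and 0.03. LTBP2, a latent TGF-beta binding protein, had log2 fold changes of 3.87, 2.51 and 2.18 in these comparisons, and THBS1, a matrix protein that can activate latent TGF-beta, had 3.48, 2.85 and 1.88. All of these values passed the test.

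WNT ligands were mostly low in these livers, and 5 of 13 averaged under 1 CPM. WNT5B, a ligand of the noncanonical type, ranged from 2.98 to 7.40 CPM (median 5.21) in LFH and from 9.38 to 24.4 CPM (median 17.7) in HFH. It ranged from 3.34 to 5.15 CPM (median 4.41) in HFL/LFH and from 11.3 to 26.2 CPM (median 12.7) in HFL/HFH. HFL/LFL held 2.74 to 6.99 CPM (median 3.27) and HFL/HFL 7.93 to 22.4 CPM (median 12.6). The lowest high fat animal was just above the highest low fat animal. Its log2 fold change was 1.74 (SE 0.23, adjusted p = 4.12e-08), 1.93 (SE 0.27, adjusted p = 2.51e-07) and 1.80 (SE 0.25, adjusted p = 3.52e-07). Other WNT pathway members called in part of the feed comparisons are named here after their values were seen. WNT9A was higher in HFH over LFH (1.04) and HFL/HFL over HFL/LFL (0.77), WNT4 in HFH over LFH (0.77) and WNT10B in HFL/HFL over HFL/LFL (2.0). WNT9B, which central vein endothelium makes, was lower in HFH over LFH (-2.02, SE 0.86) and HFL/HFL over HFL/LFL (-3.74, SE 0.91), though it never exceeded 2.05 CPM and most HFL/HFL animals had no count. The receptor FZD10 was lower in HFH over LFH (-2.05) and HFL/HFH over HFL/LFH (-1.79), and SFRP1, a secreted WNT antagonist, was higher in HFH over LFH (1.29). In none of the 3 were WNT2B, WNT3, WNT5A, WNT6, WNT7A, WNT7B, WNT11, WNT16, FZD5, FZD9 and SFRP2 called.

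Of 45 listed WNT partners 24 could be tested. AXIN2, a direct target and inhibitor of the beta-catenin pathway, had log2 fold changes of -1.55, -1.07 and -0.72 in the 3 feed comparisons, and ZNRF3, which removes Frizzled receptors from the cell surface, had -1.13, -0.85 and -0.59. The coreceptor LRP5 had -0.85, -1.09 and -0.98, whereas LGR6, an R-spondin receptor, had 2.93, 2.0 and 2.17. All of these passed the test. In all, 4 partners were higher and 4 lower in HFH over LFH, where 49.3% of all genes were called. In HFL/HFH over HFL/LFH 1 was higher and 5 lower (35.9% of all genes called), and in HFL/HFL over HFL/LFL 3 were higher and 6 lower (37.8% of all genes called). Their median log2 fold change was 0.03, -0.21 and -0.18.

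The Notch members comprised 3 receptors, 1 ligand and 6 HES and HEY repressors. NOTCH1, a receptor, was at 88.2 to 138 CPM (median 109) in LFH and 73.4 to 140 CPM (median 103) in HFH, and its log2 fold change of -0.11 had a 95% interval of -0.43 to 0.21 (adjusted p = 0.589). NOTCH3 was at 4.65 to 14.1 CPM (median 7.05) in LFH and 2.55 to 26.7 CPM (median 5.63) in HFH (log2 fold change 0.07, 95% interval -0.61 to 0.74, adjusted p = 0.886). After the first 16 weeks on high fat feed, NOTCH1 was at 96.3 to 168 CPM (median 113) in HFL/LFH, 74 to 165 CPM (median 117) in HFL/HFH, 84.5 to 162 CPM (median 112) in HFL/LFL and 78.2 to 140 CPM (median 120) in HFL/HFL. NOTCH3 was at 3.38 to 7.82 CPM (median 5.87) in HFL/LFH, 3.09 to 14.5 CPM (median 7.53) in HFL/HFH, 5.24 to 8.33 CPM (median 6.29) in HFL/LFL and 3.09 to 11.4 CPM (median 5.64) in HFL/HFL. Neither was called in any feed comparison, and their groups overlapped, while NOTCH2 was higher in HFH than in LFH (0.61, SE 0.13, adjusted p = 0.000151).

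HEYL, a repressor induced by Notch that is typical of vascular mural cells, ranged from 13 to 28.4 CPM (median 18.9) in LFH and from 37.1 to 86.2 CPM (median 59.6) in HFH. HFL/LFH held 13.7 to 62.6 CPM (median 19.3) and HFL/HFH 62.6 to 104 CPM (median 72.9), and HFL/LFL held 9.68 to 21.6 CPM (median 15.5) and HFL/HFL 33.5 to 94.0 CPM (median 72.3). Only the middle pair overlapped, through 1 HFL/LFH animal that reached the HFL/HFH range. HEYL had log2 fold changes of 1.58 (SE 0.25, adjusted p = 9.50e-07), 1.63 (SE 0.28, adjusted p = 1.26e-05) and 2.16 (SE 0.27, adjusted p = 4.46e-08). HES6, which antagonizes HES1, was at 1.73 to 3.70 CPM (median 2.27) in LFH and 2.43 to 6.64 CPM (median 4.21) in HFH. HFL/LFH held 1.09 to 2.84 CPM (median 1.75) and HFL/HFH 2.94 to 6.21 CPM (median 5.04), without overlap, and HFL/LFL held 2.37 to 4.20 CPM (median 3.29) and HFL/HFL 2.61 to 8.29 CPM (median 5.25), with overlap. HES6 had log2 fold changes of 0.84 (SE 0.24, adjusted p = 0.00382), 1.39 (SE 0.29, adjusted p = 0.000140) and 0.67 (SE 0.25, adjusted p = 0.0329), of which the last was lost in 5 of 16 fits that left out an animal, with only the groups compared and with limma voom (the highest, adjusted p = 0.135).

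HES1, the general Notch target, went down where it was called. It was at 41.7 to 126 CPM (median 59.9) in LFH and 27.8 to 69.9 CPM (median 47) in HFH, and at 39.6 to 127 CPM (median 69.4) in HFL/LFL and 35.5 to 51.9 CPM (median 45.4) in HFL/HFL. HFL/LFH held 38.7 to 138 CPM (median 56.9) and HFL/HFH 38.4 to 74.3 CPM (median 48.1). All 3 pairs overlapped. The log2 fold change of HES1 was -0.77 (SE 0.25, adjusted p = 0.0109) in HFH over LFH, -0.41 (SE 0.29, adjusted p = 0.294) in HFL/HFH over HFL/LFH and -0.78 (SE 0.26, adjusted p = 0.0145) in HFL/HFL over HFL/LFL, and the last was lost without HFL/LFL animal 49 (adjusted p = 0.0956) and with limma voom (adjusted p = 0.0788). HEY1 was at 1.81 to 4.32 CPM (median 2.88) in LFH and 2.92 to 9.60 CPM (median 4.92) in HFH, and at 1.62 to 3.84 CPM (median 2.73) in HFL/LFH and 3.20 to 7.38 CPM (median 4.60) in HFL/HFH. Both pairs overlapped. It was higher in HFH over LFH (0.80, SE 0.23, adjusted p = 0.00425) and HFL/HFH over HFL/LFH (0.84, SE 0.27, adjusted p = 0.0124) but stood at -0.12 (SE 0.24, adjusted p = 0.714) in HFL/HFL over HFL/LFL. In that last pair HFL/LFL held 2.66 to 6.71 CPM (median 4.79) and HFL/HFL 2.92 to 5.62 CPM (median 3.83), the low fat group being the wider. HEY2 was lower in HFH over LFH (-1.34) and HES2 in HFL/HFL over HFL/LFL (-0.73), while DLL3, the only ligand measured, was not called.

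Of 32 listed Notch partners 14 could be tested, and 6 were higher and 3 lower in HFH over LFH, where 49.3% of all genes were called. In HFL/HFH over HFL/LFH 2 were higher and 2 lower (35.9% of all genes called), and in HFL/HFL over HFL/LFL 4 were higher and 2 lower (37.8% of all genes called). The median log2 fold change of these partners was 0.07, 0.06 and -0.01. ADAM10, the protease that makes the first ligand-induced cut of Notch, had log2 fold changes of 0.66, 0.60 and 0.43, and PSEN2, a subunit of gamma-secretase, which makes the next cut, had -0.89, -0.76 and -0.72. DTX4, a Deltex ubiquitin ligase that acts on Notch, had 2.08, 1.32 and 0.55. These values passed the test in each comparison.

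**Figure D3:**
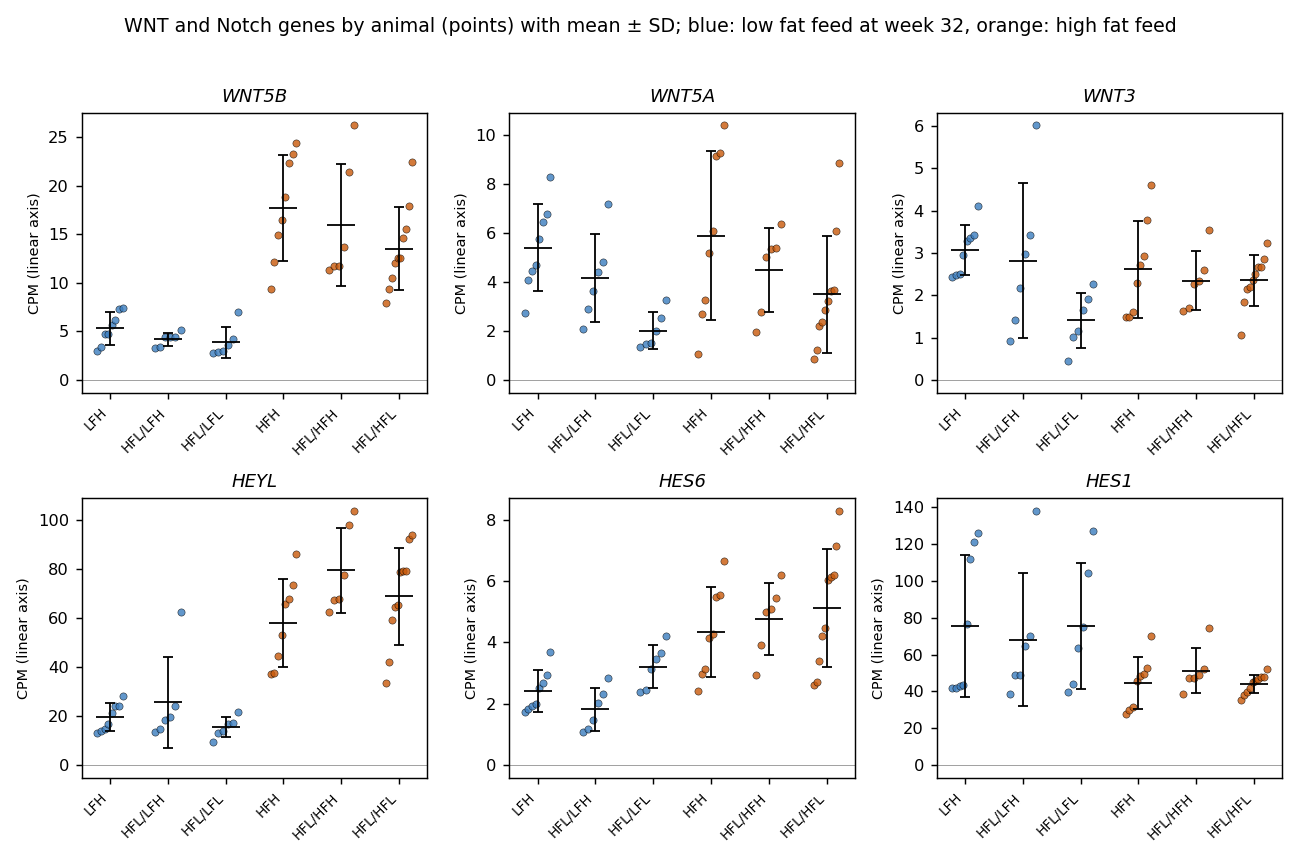
Levels of 3 WNT ligands and 3 HES and HEY repressors in CPM (vertical axes, linear) in each of 44 animals, with the mean and SD of each group as a line and bar, low fat groups in blue and high fat groups in orange. WNT5B separates the colours, HEYL does so but for 1 HFL/LFH animal at 62.6 CPM, and the 6 HFL/LFL animals lie at 2.26 CPM or less for WNT3 and 3.27 CPM or less for WNT5A.

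Of 20 growth factor members, 12 were called in HFH over LFH (49.3% of all genes), 8 in HFL/HFH over HFL/LFH (35.9% of all genes) and 8 in HFL/HFL over HFL/LFL (37.8% of all genes). FGF7 (keratinocyte growth factor), a ligand made by mesenchymal cells, was at 0 to 1.08 CPM (median 0.231) in LFH and at 2.29 to 15.8 CPM (median 5.51) in HFH. HFL/LFH held 0.196 to 1.46 CPM (median 0.738) and HFL/HFH 2.01 to 8.28 CPM (median 5.18), also without overlap. HFL/LFL held 0 to 2.92 CPM (median 0.371) and HFL/HFL 0.551 to 8.41 CPM (median 3.18), where 5 of 10 HFL/HFL animals were above all of HFL/LFL. FGF7 had log2 fold changes of 3.87 (SE 0.69, adjusted p = 1.03e-05), 2.82 (SE 0.76, adjusted p = 0.00286) and 2.12 (SE 0.69, adjusted p = 0.0135). FGFR2, whose epithelial form is the receptor for FGF7, went down. It was at 113 to 189 CPM (median 125) in LFH and 46.2 to 124 CPM (median 95.8) in HFH, with 6 of 8 HFH animals below all of LFH. HFL/LFH held 99.4 to 167 CPM (median 141) and HFL/HFH 48.5 to 87.9 CPM (median 58.2), and HFL/LFL held 109 to 177 CPM (median 134) and HFL/HFL 35.5 to 93.6 CPM (median 59.5), neither pair overlapping. FGFR2 had log2 fold changes of -0.55 (SE 0.18, adjusted p = 0.00988), -1.16 (SE 0.21, adjusted p = 1.83e-05) and -1.17 (SE 0.18, adjusted p = 1.82e-06). FGFR4, the FGF receptor typical of hepatocytes, was at 87.4 to 144 CPM (median 110) in LFH and 96.2 to 171 CPM (median 119) in HFH and was not called in any feed comparison (log2 fold change 0.14, 95% interval -0.15 to 0.42, in HFH over LFH). HFL/LFH held 105 to 151 CPM (median 136) of FGFR4 and HFL/HFH 97.9 to 192 CPM (median 110), and HFL/LFL held 95.2 to 125 CPM (median 113) and HFL/HFL 78.1 to 135 CPM (median 102), with overlap in each pair.

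FGF19, the hormone-like FGF that signals bile acid load to the liver, had no count in any LFH or HFL/LFH animal. It was above 3 counts in 5 of 8 HFH animals, which reached 1.21 CPM, and in 4 of 6 HFL/HFH animals, which reached 1.75 CPM. Set against 3 counts per library, the mean of HFH was at least 2.44-fold higher than LFH, or 1.61-fold without its highest animal. The mean of HFL/HFH was at least 2.56-fold higher than HFL/LFH, but fell under that limit without its highest animal. In HFL/HFL 3 of 10 animals were above 3 counts, and in HFL/LFL 1 of 6 was, with 6 counts. Genes were tested only with at least 200 counts in total, and those of FGF19 came almost wholly from high fat animals. With so few counts on low fat feed, a higher level in some high fat group was a condition of its being tested. The direction of these FGF19 differences was therefore partly set by that filter. Of the other FGF ligands, FGF10 (2.55, SE 0.89) and FGF2 (1.02, SE 0.40) were higher in HFH over LFH alone, and FGF1 was lower in HFH over LFH (-0.61) and HFL/HFL over HFL/LFL (-0.99).

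PDGFRB, the PDGF receptor of stellate cells and pericytes, ranged from 27.1 to 44.9 CPM (median 33.5) in LFH and from 57.5 to 209 CPM (median 114) in HFH. It ranged from 19.3 to 42.3 CPM (median 29.4) in HFL/LFH and from 62.7 to 127 CPM (median 91.1) in HFL/HFH. HFL/LFL held 36.2 to 56.5 CPM (median 41.6) and HFL/HFL 50.7 to 112 CPM (median 71.2), with 9 of 10 HFL/HFL animals above all of HFL/LFL. The other pairs did not overlap. Its log2 fold change was 1.85 (SE 0.21, adjusted p = 6.74e-10), 1.68 (SE 0.24, adjusted p = 3.11e-07) and 0.83 (SE 0.21, adjusted p = 0.00182). PDGFRA, the other PDGF receptor of fibroblasts, was at 28.3 to 86.0 CPM (median 46.1) in LFH and 49.8 to 148 CPM (median 93.9) in HFH. HFL/LFH held 43.1 to 63.5 CPM (median 53.2) and HFL/HFH 61.1 to 98.9 CPM (median 70.2), and HFL/LFL held 41.3 to 97 CPM (median 55.5) and HFL/HFL 56.8 to 118 CPM (median 79.6). All 3 pairs overlapped. It passed the test in HFH over LFH (1.02, SE 0.19, adjusted p = 2.26e-05) and stood at 0.51 (SE 0.22, adjusted p = 0.0654) and 0.44 (SE 0.20, adjusted p = 0.0812) in the other feed comparisons.

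PDGFD, a ligand of the beta receptor, was also called in HFH over LFH alone. It ranged from 1.05 to 4.69 CPM (median 2.34) in LFH and from 2.55 to 33 CPM (median 14.7) in HFH, with 7 of 8 HFH animals above all of LFH. HFL/LFH held 2.45 to 7.36 CPM (median 4.88) and HFL/HFH 4.48 to 14.6 CPM (median 7.03), and HFL/LFL held 2.27 to 14.8 CPM (median 5.87) and HFL/HFL 3.25 to 17.8 CPM (median 7.95). Its log2 fold change was 2.69 (SE 0.45, adjusted p = 3.39e-06) in HFH over LFH, 0.76 (SE 0.49, adjusted p = 0.236) in HFL/HFH over HFL/LFH and 0.49 (SE 0.44, adjusted p = 0.405) in HFL/HFL over HFL/LFL. For PDGFD the effect of HFH over LFH exceeded that of HFL/HFH over HFL/LFH by 1.93 (SE 0.655), which did not pass the test (adjusted p = 0.517). VEGFC, a lymphatic growth factor, was higher in HFH over LFH (0.55) and HFL/HFL over HFL/LFL (0.60), and PDGFRL in HFL/HFH over HFL/LFH (1.24).

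IGFBP6, a binding protein that prefers IGF2, was at 3.81 to 14.6 CPM (median 10.8) in LFH and 17.8 to 116 CPM (median 50.1) in HFH. HFL/LFH held 6.23 to 32.8 CPM (median 9.68) and HFL/HFH 31.2 to 58 CPM (median 45.7), and HFL/LFL held 10.4 to 39.7 CPM (median 12.6) and HFL/HFL 26.0 to 88.8 CPM (median 35.9). HFH and LFH did not overlap, and in the other pairs some low fat animals reached into the high fat range. IGFBP6 had log2 fold changes of 2.76 (SE 0.39, adjusted p = 1.18e-07), 1.61 (SE 0.43, adjusted p = 0.00269) and 1.44 (SE 0.40, adjusted p = 0.00369). IGFBP5 was lower in HFL/HFH over HFL/LFH (-1.50) and HFL/HFL over HFL/LFL (-0.80) and stood at -0.10 in HFH over LFH, and IGF1R, IGF2R and IGFBP2 were not called. ERBB2, the ligandless ERBB receptor and the only ERBB or EGFR gene among the members, was at 25.3 to 44.6 CPM (median 34.4) in LFH and 32.2 to 137 CPM (median 63.0) in HFH. HFL/LFH held 29.1 to 60.2 CPM (median 36.1) and HFL/HFH 41.9 to 92.8 CPM (median 67.3), and HFL/LFL held 31.3 to 73.2 CPM (median 35.5) and HFL/HFL 43.4 to 117 CPM (median 59.7). All 3 pairs overlapped. ERBB2 had log2 fold changes of 1.10 (SE 0.22, adjusted p = 5.59e-05), 0.81 (SE 0.25, adjusted p = 0.0103) and 0.63 (SE 0.23, adjusted p = 0.0256), of which the last was lost in 5 of 16 fits that left out an animal, with the highest adjusted p of 0.0729 without HFL/HFL animal 75.

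**Figure D4:**
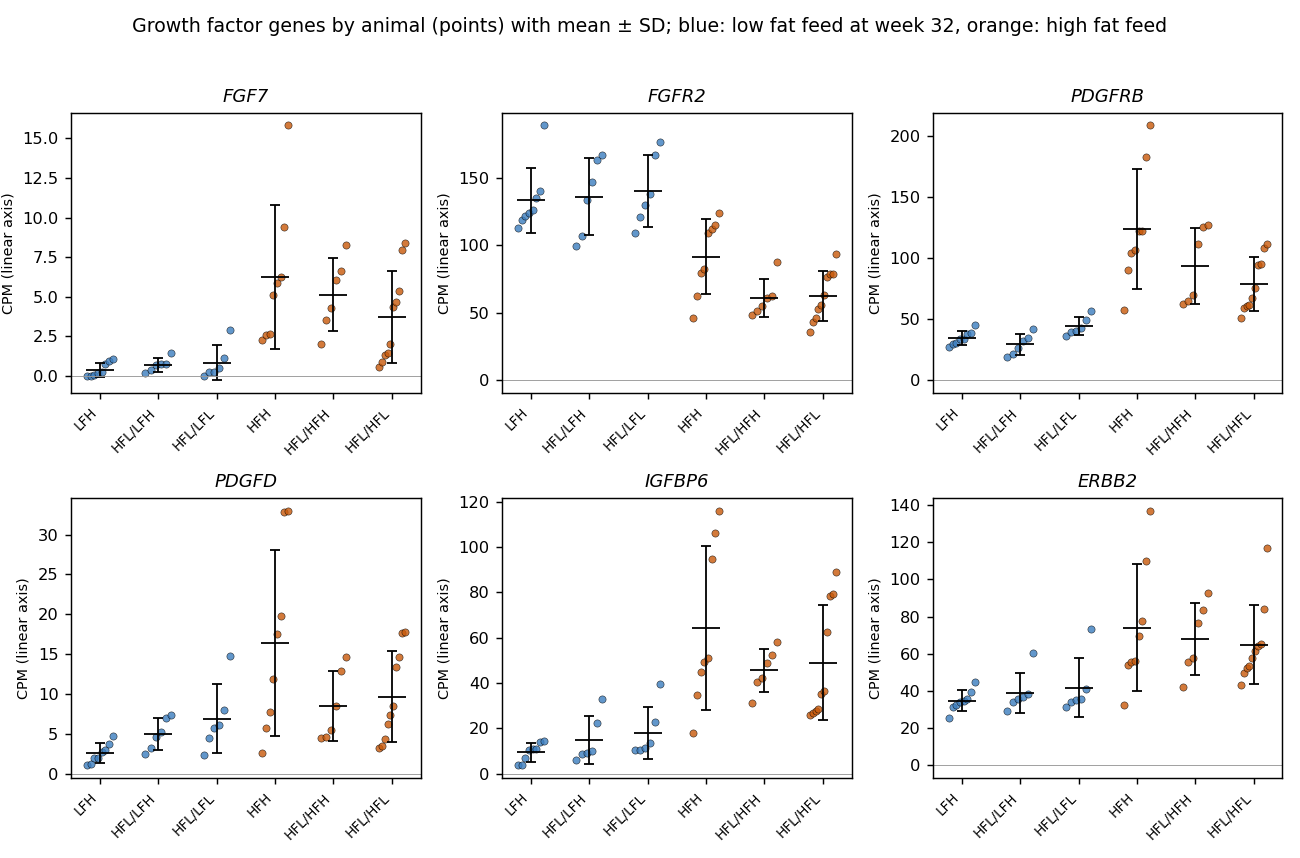
Levels of 6 growth factor pathway genes in CPM (vertical axes, linear) in each of 44 animals, with the mean and SD of each group as a line and bar, low fat groups in blue and high fat groups in orange. FGFR2 is lower and FGF7, PDGFRB and IGFBP6 are higher in the high fat groups, and PDGFD spreads most widely in HFH, from 2.55 to 33 CPM.

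Of 53 listed partners of growth factor signaling 23 could be tested, with 9 higher and 3 lower in HFH over LFH, where 49.3% of all genes were called. In HFL/HFH over HFL/LFH 6 were higher and 3 lower (35.9% of all genes called), and in HFL/HFL over HFL/LFL 4 were higher and 3 lower (37.8% of all genes called). Their median log2 fold change was 0.40, 0.01 and 0.20. PHLDA2, an imprinted growth regulator, had log2 fold changes of 2.44, 3.23 and 2.50, and SPRED3, an inhibitor of the kinase cascade under these receptors, had 2.19, 1.65 and 1.32. ANGPT2, the vascular ligand that antagonizes ANGPT1, had 1.60, 1.52 and 0.77, whereas the insulin and IGF receptor substrate IRS1 had -0.80, -1.0 and -0.81. Each of these values passed the test.

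The switched low fat groups were next set against LFH, after 16 weeks on low fat feed. HFL/LFH ate the same kind of feed as LFH by then, whereas HFL/LFL was still on low vitC. In HFL/LFL over LFH, feed history and present vitC therefore cannot be told apart. The comparisons share the LFH animals, so that their values are given side by side. No member was called in HFL/LFH over LFH by edgeR (0.361% of all genes were), where 8 members had an unadjusted p under 0.05 (10.4% of all genes). IGF2BP2, an RNA binding protein that shares only the name, was the member without overlap (0.361% of all genes). DESeq2 called TGFB3 and TGFB2 there, with 64 of all 7750 genes called, and limma voom called no member, with 17 of all genes called. In HFL/LFL over LFH 6 members were called (8.57%, against 7.91% of all genes), with TGFB3, ACVR1B and PDGFD higher (4.43% of all genes) and TGFB2, WNT3 and WNT5A lower (3.48% of all genes).

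TGFB3 was above the LFH range in 5 of 6 HFL/LFL animals and in 4 of 6 HFL/LFH animals. Its log2 fold change over LFH was 2.15 (SE 0.42, adjusted p = 0.00117) in HFL/LFL, 1.60 (SE 0.42, adjusted p = 0.0750) in HFL/LFH and 3.44 (SE 0.42) in HFH. The call in HFL/LFL was kept without any single animal (highest adjusted p of 0.00775, without HFL/LFL animal 44) and lost with limma voom (adjusted p = 0.0523). ACVR1B was likewise above the LFH range in 5 of 6 HFL/LFL animals and in 2 of 6 HFL/LFH animals, with 1.25 (SE 0.32, adjusted p = 0.0107) in HFL/LFL and 0.71 (SE 0.32, adjusted p = 0.408) in HFL/LFH. With only the groups compared in the fit its adjusted p in HFL/LFL was 0.0505. PDGFD was above the LFH range in 4 of 6 HFL/LFL animals (1.44, SE 0.46, adjusted p = 0.0449) and stood at 0.97 (SE 0.46, adjusted p = 0.456) in HFL/LFH. The call for PDGFD was lost in 9 of 14 fits that left out an animal, with the highest adjusted p of 0.187 without HFL/LFL animal 44, and also with no filter, with only the groups compared and with limma voom (the highest, adjusted p = 0.240).

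TGFB2 was below the LFH range in 5 of 6 animals of each switched low fat group, with -0.58 (SE 0.19, adjusted p = 0.0489) in HFL/LFL and -0.74 (SE 0.19, adjusted p = 0.0742) in HFL/LFH. Its call was lost in 11 of 14 fits that left out an animal, and also with no filter, with only the groups compared and with limma voom (the highest, adjusted p = 0.0717). WNT3, a canonical WNT ligand, was at 2.44 to 4.10 CPM (median 3.13) in LFH, 0.916 to 6.01 CPM (median 2.58) in HFL/LFH and 0.447 to 2.26 CPM (median 1.41) in HFL/LFL, so that HFL/LFL lay wholly below LFH. Such a lack of overlap was seen for 1.39% of all genes in that comparison. WNT5A, a noncanonical ligand of stellate and other mesenchymal cells, was at 2.73 to 8.31 CPM (median 5.22) in LFH, 2.07 to 7.19 CPM (median 4.02) in HFL/LFH and 1.34 to 3.27 CPM (median 1.76) in HFL/LFL, with 5 of 6 HFL/LFL animals below all of LFH. The log2 fold change in HFL/LFL over LFH was -1.12 (SE 0.33, adjusted p = 0.0285) for WNT3, and -1.42 (SE 0.42, adjusted p = 0.0301) for WNT5A. Both calls were lost in 3 of 14 fits that left out an animal, most of all without HFL/LFL animal 49 (adjusted p = 0.0998 for WNT3 and 0.0869 for WNT5A). The call for WNT3 was also lost with only the groups compared in the fit (adjusted p = 0.0576), and that for WNT5A with limma voom (adjusted p = 0.0795). On high fat feed WNT3 was at 1.49 to 4.60 CPM (median 2.49) in HFH, 1.64 to 3.54 CPM (median 2.30) in HFL/HFH and 1.06 to 3.24 CPM (median 2.43) in HFL/HFL. WNT5A was at 1.05 to 10.4 CPM (median 5.62) in HFH, 1.97 to 6.38 CPM (median 5.19) in HFL/HFH and 0.870 to 8.87 CPM (median 3.04) in HFL/HFL. Neither gene was called in HFH over LFH, where WNT3 stood at -0.23 and WNT5A at 0.12.

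The 12 members that were called in all 3 feed comparisons were not called in either switched low fat group over LFH. In HFL/LFL over LFH the 95% interval of the log2 difference was -0.75 to 0.76 for INHBB and -0.10 to 0.47 for TGFBR3. In HFL/LFH over LFH it was -0.89 to 0.63 for INHBB and -0.37 to 0.20 for TGFBR3. The intervals of FGF7 (-0.45 to 2.44) and IGFBP6 (0.13 to 1.73, adjusted p = 0.139) in HFL/LFL over LFH were wider. That of FGF7 lay mostly above 0 and that of IGFBP6 wholly above 0. Of the partner lists, THBS1 (1.34), DTX4 (1.24) and LTBP2 (adjusted p = 0.0429) were higher and GDF9 (-0.93) and EGF (-1.36) lower in HFL/LFL over LFH. Of the cell type lists, 2 of 4 cholangiocyte markers (EPCAM 1.09 and CLDN4 1.20), 1 of 5 stellate cell and myofibroblast markers (RGS5 0.58), 2 of 4 B cell markers and 2 of 4 neutrophil markers were higher there, and the hepatocyte marker APOA2 was lower (-0.66). The summed cholangiocyte markers were at 112 to 328 CPM in HFL/LFL and 146 to 382 CPM in LFH. The part of these cell types in the member values was not tested.

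**Figure D5:**
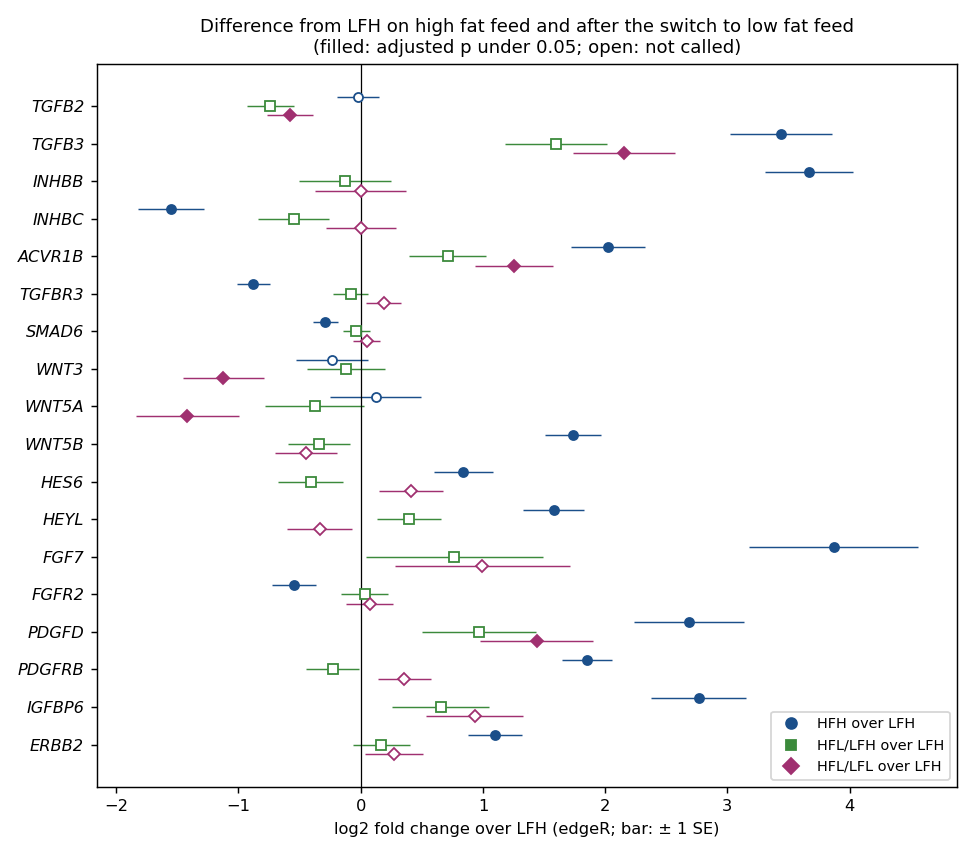
Log2 fold change over LFH (horizontal axis, ± 1 SE, edgeR) of 18 members in HFH and in both groups switched to low fat feed. Filled symbols passed an adjusted p of 0.05, and all 3 comparisons share the LFH animals. In both switched groups TGFB3, ACVR1B and PDGFD lie to the right of 0 and WNT3, WNT5A and TGFB2 to the left, whereas INHBB and TGFBR3 lie near 0.

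VitC was compared within each feed after the switch. In HFL/LFL over HFL/LFH no member passed the test with edgeR, DESeq2 or limma voom, where 0.219% of all genes (17) did with edgeR, and 11 members had an unadjusted p under 0.05 (11.0% of all genes). The smallest adjusted p among the members was 0.179, for TGFBI, with a log2 fold change of 0.51 (SE 0.17). The animals of these groups did not overlap for TGFBI alone among the members (1.43%, against 0.503% of all genes). The intervals were wide. The 95% interval of the log2 difference was -0.33 to 1.44 for TGFB3, -0.68 to 0.93 for INHBB, -0.52 to 1.46 for PDGFD and -0.04 to 0.58 for TGFBR3. For WNT3 the difference was -1.0 (SE 0.35, adjusted p = 0.217) and for WNT5A -1.04 (SE 0.44, adjusted p = 0.335).

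In HFL/HFL over HFL/HFH no member passed with edgeR, DESeq2 or limma voom (0.0129% of all genes with edgeR), and BMP2 alone had an unadjusted p under 0.05, as did 3.37% of all genes (log2 fold change -0.57, SE 0.22, adjusted p = 0.9997). No member was without overlap (0.0258% of all genes). TGFB3 stood at 0.17 (95% interval -0.61 to 0.96), and INHBB at -0.44 (95% interval -1.09 to 0.21). The interaction of vitC and feed after week 16 called no member with any of these tools and 0% of all genes with edgeR, with 6 members at an unadjusted p under 0.05 (8.23% of all genes).

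HFL/HFL and HFH animals both ate high fat feed throughout, with low and with high vitC. edgeR called no member (0.271% of all genes), while 15 had an unadjusted p under 0.05 (17.3% of all genes). DESeq2 called FGFR2 and PDGFRB, and limma voom called these together with TGFB3 and ACVR1B, all lower in HFL/HFL. Of all 7750 genes tested, DESeq2 called 147 and limma voom 557. By edgeR the log2 fold change was -0.66 (SE 0.19, adjusted p = 0.0852) for PDGFRB, -0.55 (SE 0.17, adjusted p = 0.106) for FGFR2, -1.10 (SE 0.35, adjusted p = 0.127) for TGFB3 and -0.64 (SE 0.27, adjusted p = 0.227) for ACVR1B. The HFL/HFL and HFH animals overlapped for every member (0.0129% of all genes did not overlap).

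Single animals recurred at the edge of their groups. HFL/HFH animal 30 was the highest of its group for 14 of 25 genes given in full and animal 20 the lowest for 10, and HFH animal 47 was the lowest for 9. HFL/LFL animal 44, HFL/HFL animal 75 and LFH animal 56 were each the highest for 10. Leaving out each animal in turn gave 28 to 34 called members in HFH over LFH, 15 to 24 in HFL/HFH over HFL/LFH, 16 to 23 in HFL/HFL over HFL/LFL and 2 to 6 in HFL/LFL over LFH. The last count fell to 2 without HFL/LFL animal 49.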

How the data were processed

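Liver libraries of 44 guinea pigs were analysed. Per the submitters' notes and the study's methods, the authors trimmed reads with Trimmomatic 0.38.0, aligned them with HISAT2 2.1.0 to the Ensembl guinea pig genome, quantified them with StringTie 2.1.1 and named genes by human orthologue, which can merge paralogs. The deposited count table holds raw counts per symbol. The deposited DESeq2 variance-stabilized values, on a log2 scale, served only to choose members. How counts were taken from StringTie is not given in the sources used here.

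The main test was edgeR 4.0.16 (R 4.3.3), whose quasi-likelihood model with TMM scaling held the means of all 6 groups and covered 7750 symbols with at least 200 counts in total, with Benjamini-Hochberg adjustment over all of them for each of 10 comparisons and a threshold of 0.05. Tests were two-sided. CPM used effective library sizes, and intervals are 95%. The limit set by 3 counts covers counting error only. The fit was checked on simulated data. Alternatives were RLE scaling, no filter, filterByExpr, only the groups compared, DESeq2 1.42.0, limma 3.58.1 voom with quality weights, symbols with the same counts taken once, and leaving out each animal.

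Members, lists and comparisons were chosen with earlier results of these data known. Given in full were members called in 1 direction in all 3 feed comparisons, members called between vitC levels, in an interaction or against LFH after the switch, and 34 genes by role, of which 11 were present. Partners were named by the largest called changes with a mean of at least 1 CPM. Of the 8 marker lists, those for endothelium, macrophages, T cells, B cells and neutrophils are given in the closing section. No sequences or coordinates are printed, since only a gene table of another assembly could be used. Results for some listed partners and markers are not reported here.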

Additional observations from a re-analysis of the deposited data

Results flagged for a closer look

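Of 150 gene and group combinations of the 25 genes given in full, 6 had an animal whose gap to its neighbour, as a share of the group's range on the log2 CPM scale, passed Dixon's limit, where chance gives about 1 in 20. ERBB2 in HFL/LFL animal 44 had a gap of 0.681 of the range and in HFL/LFH animal 33 of 0.627. FGFR2 in LFH animal 25 had 0.579, FGFR4 in HFL/HFH animal 30 had 0.752 and INHBB in HFL/HFH animal 15 had 0.677, all as the highest of their group. WNT3 in HFL/HFL animal 34 was the lowest of its group, with a gap of 0.491. The feed effect on TGFB3 was larger in animals that never changed feed than after the switch, by 2.88 on the log2 scale (SE 0.59, adjusted p = 0.0189, edgeR), with all 8 HFH animals above all 8 LFH animals and overlap between HFL/HFH and HFL/LFH. These pairs differ in the vitC and fat of the first 16 weeks, which cannot be told apart.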

How the results depend on the processing

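No paired analysis was possible because animal numbers are not shared between groups. RLE scaling, no filter, filterByExpr and symbols with the same counts taken once kept every count of called members within 1.5 times, but without a filter PDGFD and TGFB2 lost their calls in HFL/LFL over LFH. Of 53 calls of genes given in full, 7 were lost with limma voom and 6 with only the groups compared, each named in the report. DESeq2 called 2 members and limma voom 4 in HFL/HFL over HFH (147 and 557 of all 7750 genes), where edgeR called 0. DESeq2 called 2 in HFL/LFH over LFH (64 of all genes), where edgeR called 0. In HFL/LFL over LFH, 2 of 6 calls were made with only the groups compared in the fit (TGFB3 and WNT5A) and 2 with limma voom (WNT3 and ACVR1B). These fits called 262 and 418 of all 7750 genes, where edgeR's main fit called 613. The difference of feed effects on TGFB3 went from 1 call to 0 with limma voom. No named value changed sign where it was called. Leaving out an animal gave 28 to 34, 15 to 24 and 16 to 23 called members in the 3 feed comparisons in the order of the report, 2 to 6 in HFL/LFL over LFH, 0 to 2 in HFL/HFL over HFH, 0 to 1 in HFL/LFH over LFH and 0 to 1 for the difference of feed effects. It gave 0 to 0 in the vitC comparisons and their interaction. The causes were not tested. Counting depth limits 15 members that averaged under 1 CPM, among them FGF10, FGF19, HEY2 and WNT9B.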

Other observations

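Markers of immune cells moved in both directions between feeds. Of 6 T cell markers, CD3E, part of the T cell receptor complex, was lower in HFH than in LFH (log2 fold change -1.31) and in HFL/HFH than in HFL/LFH (-1.14), while CD8A, of cytotoxic T cells, was higher in both (1.53 and 1.19). The other T cell markers were not called, and the summed level of the list was 165 to 235 CPM in LFH and 57.3 to 110 CPM in HFH, 156 to 203 CPM in HFL/LFH and 53.1 to 146 CPM in HFL/HFH, and 78.8 to 234 CPM in HFL/LFL and 66.2 to 142 CPM in HFL/HFL. In each of the 3 feed comparisons 1 of 4 B cell markers was called, and it was lower on high fat feed. CD79B (1.37) and MS4A1 (1.21) of this list were higher in HFL/LFL over LFH, while the summed level of the list was 364 to 476 CPM in HFL/LFL and 354 to 478 CPM in LFH. Of 4 neutrophil markers, S100A8 and S100A9, calcium binding proteins of neutrophils, were higher in HFL/HFH over HFL/LFH (2.36 and 1.97) and in HFL/LFL over LFH (2.67 and 2.27), and MPO, a granule enzyme, was higher in HFL/HFL over HFL/LFL (adjusted p = 0.0102). Of 3 macrophage markers, C1QA alone was called, lower in HFH than in LFH (-0.69). Of 4 endothelial markers, LYVE1, of sinusoidal and lymphatic endothelium, was lower in all 3 feed comparisons (-1.86, -1.46 and -1.22), VWF was higher in HFH over LFH (0.68) and lower in HFL/HFL over HFL/LFL (-0.62), and CDH5 was lower in HFL/HFL over HFL/LFL (-0.63). The fold changes given passed edgeR's test with an adjusted p under 0.05.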
